A study of Mus musculus with 18 samples.

Results

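The 9 genes of the insulin-like growth factor (IGF) system described here were taken from 53465 genes in the count tables of skeletal muscle (SKM), white adipose tissue (WAT) and brown adipose tissue (BAT) of C57BL/6J mice. They are the ligands Igf1 and Igf2, the receptor Igf1r and the binding proteins Igfbp2, Igfbp3, Igfbp4, Igfbp5, Igfbp6 and Igfbp7. The genes were chosen by name, with earlier results of these same libraries in view; which measured value led to each gene is not stated in the sources used here. The values below are therefore a description of these 9 genes, and the p-values, adjusted over all genes tested, serve to place a difference against the spread between libraries and not as independent support.

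There were 18 libraries, 3 for each tissue under each of the treatments (6 groups). Vehicle mice received 100 µL of 10% PEG400 in phosphate-buffered saline by gavage, and quercetin mice received the flavonoid quercetin at 0.125 mg/kg in the same carrier, so that every group had been given PEG400. All mice were wild type. The sources used here do not give the sex, age, treatment length or white fat depot of the sequenced animals, nor whether a library was made from 1 animal, so the spread between libraries may be partly technical. The series asks how long-term low-dose quercetin changes the transcriptomes of 3 tissues.

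IGF1 and IGF2 are secreted growth factors that signal through the receptor tyrosine kinase IGF1R to the PI3K and AKT kinases and to the MAP kinases. In blood and in tissues nearly all of each ligand is held by IGF-binding proteins, which slow its clearance and keep it from the receptor until a protease cleaves them. Muscle fibres, adipocytes, fibroblasts and macrophages make IGF1 locally, and muscle growth and fat cell formation both depend on the pathway. IGFBP7 binds IGFs weakly and is known mainly as a protein of vessels and connective tissue.

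Depth ranged from 8436308 to 12311345 gene counts per library. In SKM, 6 muscle fibre markers summed to 65100 to 120000 CPM (counts scaled by library size). The sum of 6 adipocyte markers was 647 to 38600 CPM in WAT, 19700 to 24100 in BAT and 1270 to 7250 in SKM. It therefore did not set every WAT library apart from SKM. WAT vehicle 2, at 647 CPM, lay below all SKM libraries and held the most muscle transcript of WAT (1090 CPM). In BAT, 5 brown adipocyte markers summed to 2230 to 10100 CPM. Several libraries stood apart. SKM quercetin 2 held seminal vesicle transcripts (4 genes, 26100 CPM, against 0 in the other SKM libraries), and BAT quercetin 3 held the most muscle transcript of the BAT libraries (30100 CPM, against 5.16 to 4210) and the least brown adipocyte transcript. In WAT, 4 libraries held B cell and lymph node transcripts (6 genes, 535 to 2770 CPM), and WAT vehicle 1 and WAT quercetin 2 did not (1.2 and 2.85 CPM); these 2 libraries were also the only WAT libraries of flow cell H7GKJDSXX, and the remaining 4 came from H7H2WDSXX, so flow cell and tissue content cannot be told apart there. As an alternative, the tissue fits were repeated without a set of 5 libraries: SKM vehicle 1, SKM vehicle 3, SKM quercetin 2, WAT vehicle 2 and BAT quercetin 3. That set was chosen from earlier results of these data, and the fits without it keep WAT vehicle 1 and WAT quercetin 2. In bulk tissue, fewer cells of a type and less RNA per cell cannot be told apart either.

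Promoter sequence is shown for the 4 binding-protein genes that the results turn on most: Igfbp3, which had the smallest p of the members between the arms of BAT, Igfbp4, which varied with Igf1, and Igfbp5 and Igfbp6, which varied together. The sequences come from RefSeq (build GRCm38.p6), run 5′ to 3′ on the gene's own strand and end at the base before the annotated start or before the first base annotated as exon. They span chr11:7213924-7214173 (minus strand), chr11:99040994-99041243 (plus), chr1:72874885-72875115 (minus) and chr15:102143936-102144185 (plus). Capitals mark exact matches, on either strand, to TATAAA or TATATA, forms of the TATA box.
Igfbp3: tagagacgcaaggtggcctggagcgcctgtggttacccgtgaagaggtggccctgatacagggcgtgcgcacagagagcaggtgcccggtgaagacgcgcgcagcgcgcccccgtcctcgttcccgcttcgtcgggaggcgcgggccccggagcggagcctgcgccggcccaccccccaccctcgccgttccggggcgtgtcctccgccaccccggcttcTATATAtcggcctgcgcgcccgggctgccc
Igfbp4: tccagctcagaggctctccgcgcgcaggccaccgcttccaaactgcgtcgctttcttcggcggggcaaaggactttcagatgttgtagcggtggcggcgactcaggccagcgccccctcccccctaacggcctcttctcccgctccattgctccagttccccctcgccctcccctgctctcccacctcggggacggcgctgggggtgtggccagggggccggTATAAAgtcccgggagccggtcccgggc
Igfbp5: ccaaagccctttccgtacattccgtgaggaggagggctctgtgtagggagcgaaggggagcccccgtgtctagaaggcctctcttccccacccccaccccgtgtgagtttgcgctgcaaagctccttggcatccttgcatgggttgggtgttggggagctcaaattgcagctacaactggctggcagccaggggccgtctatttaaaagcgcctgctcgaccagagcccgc
Igfbp6: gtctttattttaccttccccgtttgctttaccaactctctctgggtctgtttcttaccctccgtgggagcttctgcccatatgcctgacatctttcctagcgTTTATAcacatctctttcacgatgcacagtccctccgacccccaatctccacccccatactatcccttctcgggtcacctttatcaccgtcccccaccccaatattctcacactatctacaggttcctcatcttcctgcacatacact
The match in Igfbp3 began 30 bases before the start (TATATA, found in 5.25% of 32851 windows of 250 bases before a start) and that in Igfbp4 28 bases before it (TATAAA, found in 12.4%). In Igfbp6 the match to TATAAA lay 148 bases before the RefSeq start on the other strand, and Igfbp5 held no exact match in this window. The GC box core GGGCGG, also sought on both strands, was in none of these 4 windows and in 32.7% of all windows, while Igfbp7 had 4 matches, Igfbp2 had 3 and Igf1r and Igf2 each had 2. The E-box CACGTG, in 6.02% of all windows, matched Igfbp2; the Igf1 window lies within annotated exon and was not searched.

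The ligand Igf1 (chr10:87858265-87937042, GRCm38) was expressed in all 18 libraries. In SKM it stood at 7.92, 37.7 and 82.2 CPM in the vehicle libraries and at 59.6, 49.6 and 19.5 CPM in the quercetin libraries. WAT libraries gave 403, 24.1 and 76.2 CPM with vehicle and 67.1, 211 and 59.8 CPM with quercetin. BAT libraries gave 74.3, 26.3 and 32.9 CPM with vehicle and 17.5, 36.5 and 128 CPM with quercetin. The arms overlapped in every tissue, and the 2 highest values of the whole set were those of WAT vehicle 1 and WAT quercetin 2, the pair without lymph node transcripts. Per kilobase of exon the tissue means were 4.31 ± 2.73 (SD, n = 6) in SKM, 14.2 ± 14.5 in WAT and 5.32 ± 4.23 in BAT. The higher estimate in WAT than in SKM, 1.68 ± 0.71 on the log2 scale (SE), did not pass the threshold (edgeR adjusted p = 0.0596), and it was 0.21 within flow cell H7H2WDSXX. With DESeq2 the same estimate passed (adjusted p = 0.0261). BAT lay below WAT by -1.40 ± 0.70 (edgeR adjusted p = 0.126), which passed without BAT quercetin 3 (-1.98, adjusted p = 0.0437).

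Igf2 (chr7:142650766-142666816), an imprinted fetal growth factor whose transcript is low in most adult mouse tissues, was near the limit of detection. It read 0.349, 0.601 and 0.323 CPM in SKM vehicle and 1.36, 0.868 and 0.557 CPM in SKM quercetin libraries. In WAT 4 of 6 libraries had no count, which allows up to 0.217 to 0.327 CPM at 3 counts per library, and the remaining WAT quercetin libraries 1 and 2 read 0.0794 and 0.511 CPM. BAT libraries read 0.301, 0.144 and 0.444 CPM with vehicle and 0.283, 0.405 and 0 CPM with quercetin. Igf2 passed the count filter in no comparison, so no difference was tested. Of its exon bases, 62.8% are shared with the overlapping gene Gm49394 on the same strand, and reads there can be left uncounted as ambiguous, so these values may be lower limits.

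The maternally expressed RNA H19 lies beside Igf2 in the same imprinted region. H19 averaged 262 ± 186 CPM in SKM, 0.965 ± 1.03 in WAT and 38.1 ± 72.5 in BAT (SD, n = 6 each). It was lower in WAT than in SKM with no overlap between the libraries (log2 fold change -8.05 ± 1.47, edgeR adjusted p = 0.000472), and its BAT level ran from 0.101 to 184 CPM, the highest in the muscle-rich BAT quercetin 3. BAT against SKM was -3.14 ± 1.16 (adjusted p = 0.0555), and -5.75 (adjusted p = 0.00165) without that library. BAT was above WAT (4.91 ± 1.3, adjusted p = 0.0079), a call that ended without BAT quercetin 3 (2.30, adjusted p = 0.0675) and in the vehicle libraries alone (3.49, adjusted p = 0.128). Igf2bp2, which encodes an RNA-binding protein of Igf2 mRNA, averaged 3.58 ± 1.62, 6.36 ± 4.32 and 9.11 ± 4.13 CPM in SKM, WAT and BAT. Its estimate in BAT against SKM was 1.38 ± 0.52 (edgeR adjusted p = 0.0612), and it passed with DESeq2 (1.35, adjusted p = 0.033).

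The receptor Igf1r (chr7:67952827-68233668) encodes the tyrosine kinase through which both ligands act, and it was expressed in every library. SKM vehicle libraries gave 51.3, 26.6 and 40.3 CPM and SKM quercetin libraries 36.7, 30.0 and 22.8 CPM. WAT vehicle libraries gave 29.1, 26.6 and 28.2 CPM and WAT quercetin libraries 18.2, 21.2 and 19.8 CPM, so the 2 arms of WAT did not overlap. BAT libraries lay between 16.0 and 26.9 CPM in vehicle and between 17.1 and 19.7 CPM in quercetin, and these overlapped. Igf1r was lower in BAT than in SKM by -0.83 ± 0.20 on the log2 scale (95% interval -1.26 to -0.41, edgeR adjusted p = 0.00628), a call kept on leaving out each of the 18 libraries in turn (-0.97 to -0.72). Without the set of 5 libraries named above it was -0.54 (adjusted p = 0.2), and in vehicle libraries alone -0.98 (adjusted p = 0.13).

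WAT was also below SKM for Igf1r, by -0.55 ± 0.20 (adjusted p = 0.0324). That call was lost in 8 of 18 leave-one-out fits, with the estimate between -0.71 and -0.43, and without the set of 5 libraries (-0.25, adjusted p = 0.492). BAT and WAT differed by -0.29 ± 0.20, which did not pass with edgeR (adjusted p = 0.266) and did with voom (-0.37, adjusted p = 0.0314).

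Of the 9 genes, 8 could be tested between tissues. In WAT against SKM 5 of the 8 passed, 2 higher and 3 lower; over all 16388 genes 50.3% passed, 28.6% higher and 21.7% lower, and the median log2 fold change was 0.14 over the 8 members and 0.24 over all genes. In BAT against SKM 2 of 8 passed, both lower, against 27.2% of all genes (13.9% higher, 13.3% lower), with medians of -0.47 and 0.03. In BAT against WAT 2 of 8 passed, both lower, against 40.3% of all genes (18.3% higher, 22% lower), with medians of -0.68 and -0.13. The 6 libraries of 1 tissue lay wholly above or below the 6 of another for none of the 9 genes, whereas this held for 23.7%, 15.3% and 12.8% of all genes in these 3 comparisons. Read against these shares, the counts are no result about the 8 members, and none of the members separated the tissues library by library.

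**Figure D1:**
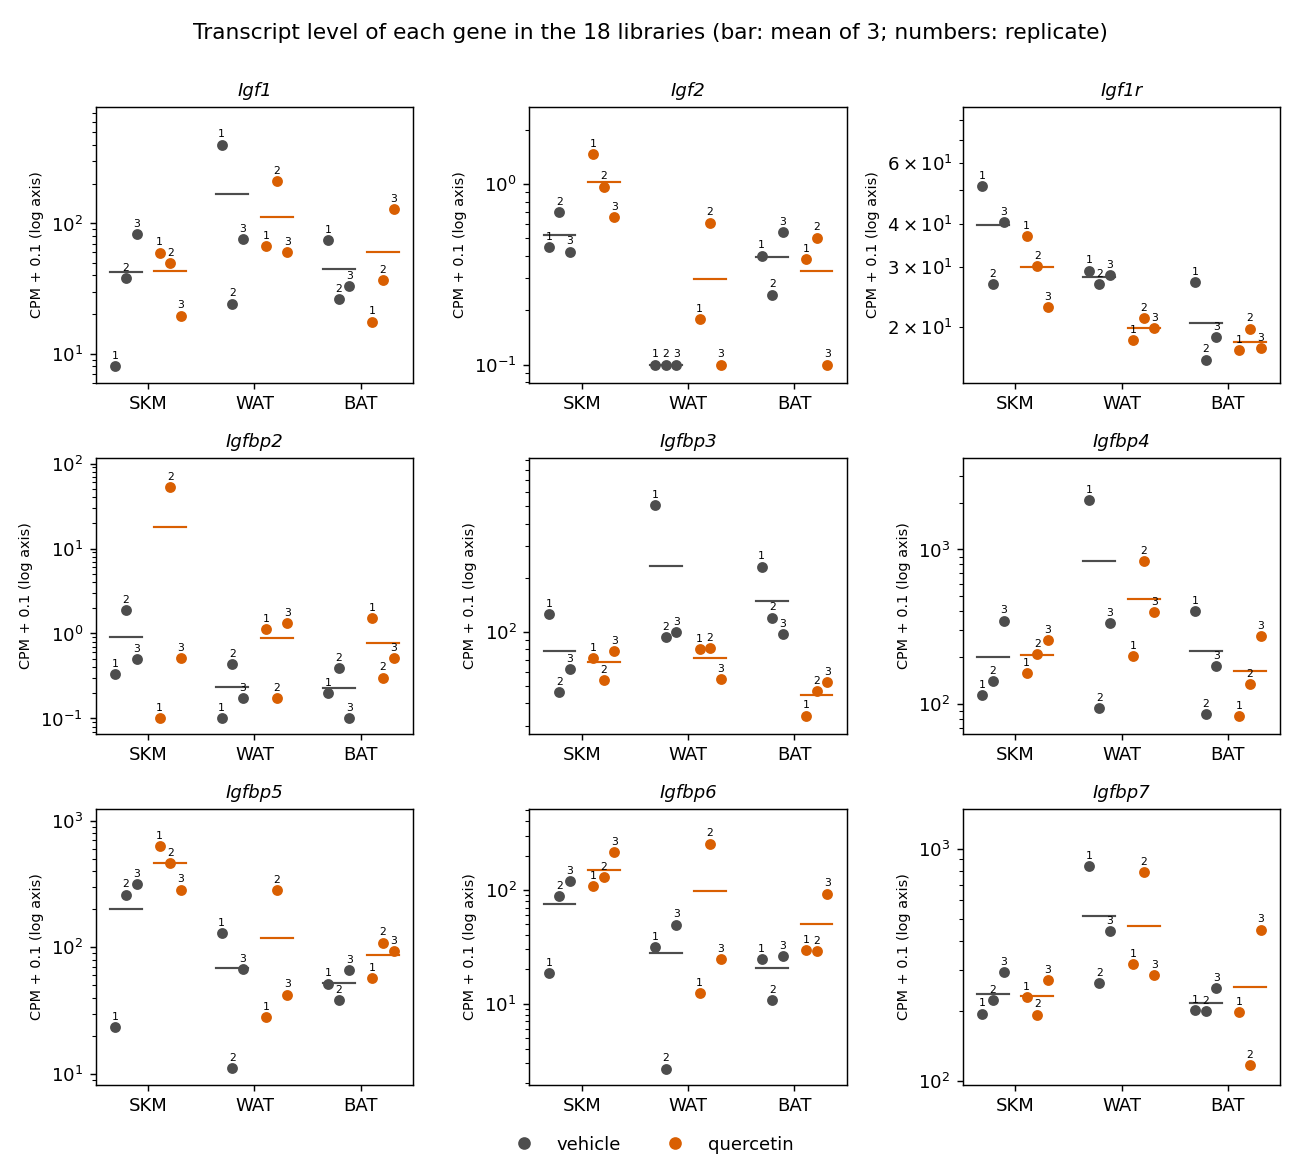
Level of each of the 9 genes in CPM (0.1 added, log axis) in each library of SKM, WAT and BAT; points are libraries numbered by replicate, bars are means of 3. The WAT vehicle 1 and WAT quercetin 2 libraries hold the 2 highest values of Igf1, Igfbp4 and Igfbp7 in WAT, and vehicle 1 has the highest Igfbp3 in each tissue.

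Igfbp7 (chr5:77349240-77408041) was the most abundant binding protein per kilobase in all 18 libraries. This rank depends on division by exon length (1209 bases, against 4416 for Igfbp4 and 6006 for Igfbp5). By CPM, Igfbp5 was above Igfbp7 in every SKM library except vehicle 1, for example in SKM quercetin 1 (633 against 230). Igfbp4 was above Igfbp7 in WAT vehicle 1 (2080 against 839), WAT quercetin 2 (842 against 791) and WAT quercetin 3 (395 against 285). The same held in BAT vehicle 1 (397 against 202), BAT quercetin 2 (134 against 117), SKM vehicle 3 and SKM quercetin 2. SKM libraries gave 195, 222 and 293 CPM with vehicle and 230, 193 and 271 CPM with quercetin, a narrow range. WAT libraries gave 839, 264 and 443 CPM with vehicle and 319, 791 and 285 CPM with quercetin, and BAT libraries 202, 199 and 250 CPM with vehicle and 197, 117 and 448 CPM with quercetin. WAT was higher than SKM (1.07 ± 0.37, 2.09-fold, edgeR adjusted p = 0.0259) and higher than BAT (BAT minus WAT -1.06 ± 0.37, adjusted p = 0.0319). The calls were lost in 5 and 8 of 18 leave-one-out fits. Both ended without WAT vehicle 1 (0.79, adjusted p = 0.0727, and -0.79, adjusted p = 0.0817), without WAT quercetin 2 (0.73, adjusted p = 0.102, and -0.73, adjusted p = 0.117) and within flow cell H7H2WDSXX (0.53, adjusted p = 0.239, and -0.46, adjusted p = 0.287). SKM and BAT had near equal means of 234 ± 40.4 and 235 ± 113 CPM, with a 95% interval of -0.77 to 0.78 for the log2 difference. Of the Igfbp7 exon bases, 7.03% overlap Polr2b on the other strand, and the strand setting of the counting is not stated.

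Igfbp4 (chr11:99041244-99054392), which holds IGFs back from the receptor until the protease PAPP-A cleaves it, had the widest range in WAT. Its levels were 114, 141 and 346 CPM in SKM vehicle and 158, 210 and 258 CPM in SKM quercetin libraries. They were 2080, 93.6 and 335 CPM in WAT vehicle and 203, 842 and 395 CPM in WAT quercetin libraries, and 397, 85.4 and 175 CPM and 82.9, 134 and 274 CPM in the vehicle and quercetin libraries of BAT. All arms overlapped, and WAT vehicle 1 and WAT quercetin 2 were again highest. The mean of WAT was 3.10-fold that of SKM (log2 1.63 ± 0.64, adjusted p = 0.0445), and BAT lay below WAT by -1.74 ± 0.64 (adjusted p = 0.0409). Each call was lost in 11 of 18 leave-one-out fits. Without WAT vehicle 1 the values were 0.65 (adjusted p = 0.298) and -0.76 (adjusted p = 0.236), without WAT quercetin 2 1.26 (adjusted p = 0.121) and -1.37 (adjusted p = 0.109), and within flow cell H7H2WDSXX 0.38 (adjusted p = 0.589) and -0.39 (adjusted p = 0.565).

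The adipocyte markers moved with Igfbp4 in WAT, and less closely with Igf1 and Igfbp7. Their sum was 38600 CPM in WAT vehicle 1 and 15300 in WAT quercetin 2, against 647 to 13700 in the other 4 WAT libraries. WAT quercetin 3, at 13700 CPM, had Igf1 (59.8 CPM) and Igfbp7 (285 CPM) above only those of WAT vehicle 2. In BAT the sum ran only from 19700 to 24100 CPM. BAT quercetin 3, with the lowest sum, had the highest Igf1 (128 CPM) and Igfbp7 (448 CPM) of BAT. After centring each tissue on its mean, log2 Igfbp4 correlated with the log2 adipocyte sum over the 18 libraries (Pearson r = 0.766, a description over libraries that share tissues), with r of 0.482 for Igfbp7 and 0.62 for Igf1. Other marker sums moved with these genes as well: r with the Schwann cell sum was 0.743 for Igfbp7 and 0.692 for Igf1, r with the endothelial sum was 0.744 for Igfbp4 and 0.621 for Igfbp7, and r with the B cell sum was -0.721 for Igfbp4 and -0.646 for Igfbp7. Their part in the Igfbp4, Igfbp7 and Igf1 differences was not tested.

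Igfbp5 (chr1:72857932-72874884), a binding protein of bone, muscle and connective tissue matrix, was highest in muscle. SKM libraries gave 23.4, 261 and 316 CPM with vehicle and 633, 466 and 286 CPM with quercetin. WAT libraries gave 129, 11 and 67.4 CPM with vehicle and 28.2, 283 and 42.3 CPM with quercetin, and BAT libraries 51.6, 38.0 and 66.3 CPM with vehicle and 57.1, 109 and 93.5 CPM with quercetin. SKM vehicle 1 was far below the other 5 SKM libraries, at a level within the WAT range and below all 6 BAT libraries. BAT was lower than SKM by -2.18 ± 0.69 (4.53-fold, adjusted p = 0.0274), with a leave-one-out range of -2.44 to -1.93 in which 7 of 18 fits missed the threshold. WAT was lower than SKM by -1.75 ± 0.68 (adjusted p = 0.0414), a call missed in 9 of 18 such fits (-2.64 to -1.51, the first without WAT quercetin 2) and without the set of 5 libraries (-1.69, adjusted p = 0.0822). In vehicle libraries alone neither passed (-1.98, adjusted p = 0.258, and -1.53, adjusted p = 0.273).

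Igfbp6 (chr15:102144362-102149511), which prefers IGF2 over IGF1, followed Igfbp5. SKM libraries gave 18.5, 88.3 and 119 CPM with vehicle and 108, 129 and 215 CPM with quercetin. WAT libraries gave 31.5, 2.59 and 49.4 CPM with vehicle and 12.3, 256 and 24.5 CPM with quercetin. BAT libraries gave 24.7, 10.7 and 26.0 CPM with vehicle and 29.3, 29.0 and 93.0 CPM with quercetin. SKM vehicle 1 was again the lowest of SKM and WAT vehicle 2 the lowest of WAT. Neither WAT against SKM (-1.03 ± 0.74, adjusted p = 0.257) nor BAT against SKM (-1.73 ± 0.75, adjusted p = 0.103) passed; without WAT quercetin 2 WAT was below SKM by -2.26 (adjusted p = 0.0119) and BAT by -1.72 (adjusted p = 0.045), and within flow cell H7H2WDSXX WAT was below SKM by -2.13 (adjusted p = 0.0309). With all libraries, voom called both (-1.80, adjusted p = 0.00352, and -2.08, adjusted p = 0.00557), and DESeq2 called BAT against SKM (-1.76, adjusted p = 0.0396).

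Over the 18 libraries, centred within tissue, Igfbp5 and Igfbp6 had the highest correlation of any pair of members (r = 0.862), followed by Igf1 with Igfbp4 (0.833) and Igf1 with Igfbp5 (0.785). These r values describe libraries that share tissue and depth and carry no test. The 7 fibroblast and adipose progenitor markers varied with the first pair: r was 0.865 for Igfbp5 and 0.896 for Igfbp6. Their summed level was 365 CPM in SKM vehicle 1 against 1090 to 1970 in the other SKM libraries, 4470 in WAT quercetin 2 against 457 to 1950 in the other WAT libraries, and 357 to 848 in BAT. SKM quercetin 3 had Igfbp6 at 215 CPM with a fibroblast sum of 1360, against 108 CPM with 1970 in SKM quercetin 1. Other marker sums varied with Igfbp5 and Igfbp6 too. In that order, r was 0.699 and 0.796 for Schwann cells, 0.618 and 0.668 for macrophages, and 0.774 and 0.635 for mesothelium. The mesothelial sum reached at most 14.4 CPM. The part of fibroblast or other cell content in the Igfbp5 and Igfbp6 differences was not tested.

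**Figure D2:**
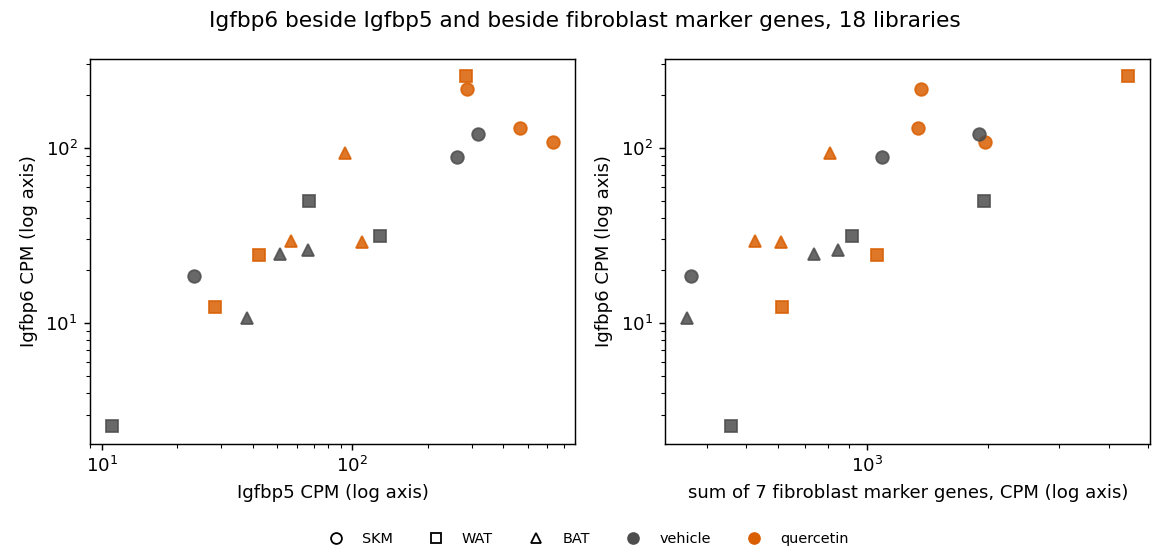
Igfbp6 (CPM, log axis) against Igfbp5 (CPM, log axis; left) and against the sum of 7 fibroblast marker genes (CPM, log axis; right); each point is 1 of 18 libraries, with shape for tissue and colour for treatment. Igfbp6 tends to be higher where either is higher, with scatter. Its lowest value is 2.59 CPM in WAT vehicle 2 and its highest is 256 CPM in WAT quercetin 2.

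Igfbp3 (chr11:7206086-7213923), the main carrier of IGF1 in blood, had tissue differences that did not pass the threshold with all libraries in edgeR. SKM libraries gave 126, 46.3 and 62.0 CPM with vehicle and 71.2, 53.9 and 77.8 CPM with quercetin. WAT libraries gave 507, 93.3 and 99.2 CPM with vehicle and 79.9, 81.1 and 54.3 CPM with quercetin. BAT libraries gave 231, 120 and 96.8 CPM with vehicle and 34.1, 46.9 and 52.3 CPM with quercetin. The arms overlapped in SKM, while in WAT and in BAT every quercetin library was below every vehicle library. WAT lay above SKM by 0.83 ± 0.41 (adjusted p = 0.0999), which passed without SKM vehicle 1 (1.09, adjusted p = 0.0451). BAT lay above SKM by 0.16 ± 0.40 (adjusted p = 0.817) and below WAT by -0.67 ± 0.41 (adjusted p = 0.205).

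Igfbp2 (chr1:72824503-72852474), a binding protein of liver, brain and white fat precursors, was close to the detection limit in 17 libraries, at 0 to 1.80 CPM. The exception was SKM quercetin 2 with 52.9 CPM (427 counts), the library with seminal vesicle transcripts. The other SKM libraries read 0.233, 1.80 and 0.404 CPM in vehicle and 0 and 0.418 CPM in quercetin. The gene with the most similar profile was Krt8, a keratin of simple epithelia (r = 0.702). WAT against SKM passed with all libraries (-3.45 ± 1.27, adjusted p = 0.0346) and was -0.24 (adjusted p = 0.865) without SKM quercetin 2. BAT against SKM was -3.67 ± 1.34 (adjusted p = 0.0525), and -0.46 without that library.

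**Figure D3:**
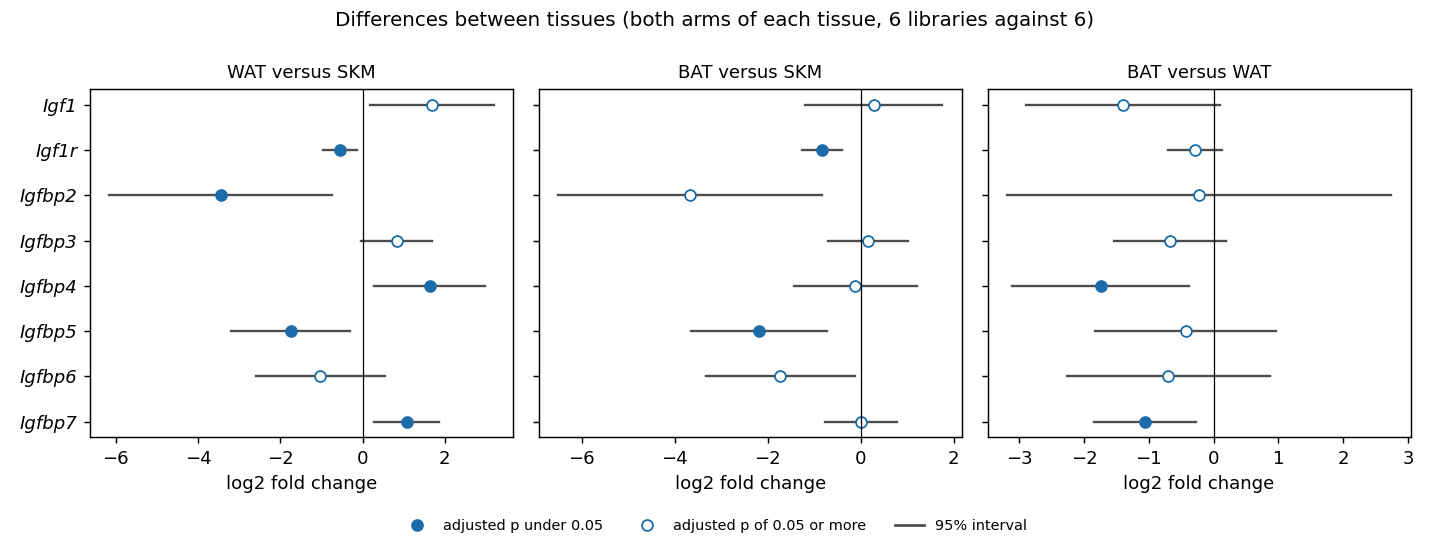
Log2 fold changes between tissues for the 8 members that could be tested (points, filled where the edgeR adjusted p was under 0.05; lines, 95% intervals; 6 libraries against 6). Igf1r is lower in BAT than in SKM by 0.83 with a narrow interval, whereas the interval of Igfbp2 reaches from -6.16 to -0.74 in WAT against SKM.

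The mix of binding-protein transcripts was compared per kilobase of exon within each library, over the 6 binding proteins. Igfbp7 made up 35.8 to 65.0% of the sum in SKM (median 45.3%), 50.4 to 79.8% in WAT (66.3%) and 46.2 to 71.1% in BAT (66.9%). Igfbp6 was the next largest in SKM, with a median of 22.0%, against 4.53% in WAT and 9.50% in BAT. Igfbp4 was next in the fat tissues, with medians of 15.5% in WAT and 12.0% in BAT. Igfbp5 had a median share of 11.4% in SKM, 1.73% in WAT and 3.19% in BAT, while Igfbp2 stayed at or under 0.334% outside SKM quercetin 2 (6.42%). SKM vehicle 1 differed from the other SKM libraries in its mix, with 65.0% Igfbp7, 16.2% Igfbp3 and 1.57% Igfbp5. Set against the ligand, the 6 binding proteins summed to between 33.8 and 311 times the Igf1 level per kilobase, the lowest in WAT vehicle 1 and the highest in SKM vehicle 1.

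**Figure D4:**
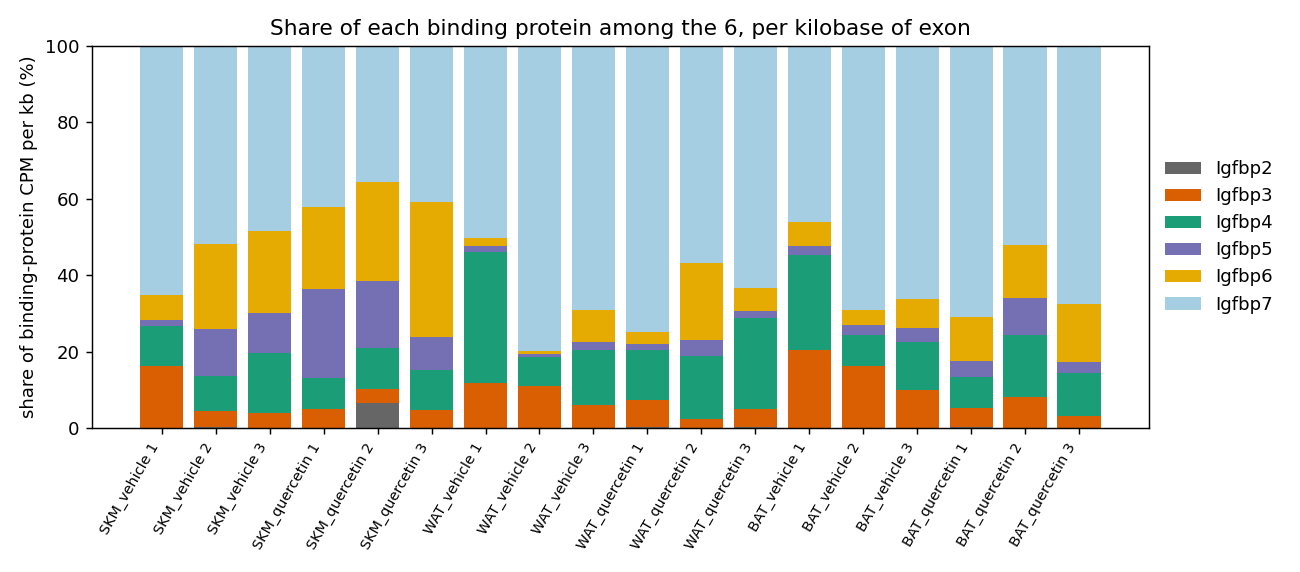
Share (%) of each of the 6 binding proteins in their summed CPM per kilobase of exon; each bar is 1 library. Igfbp7 is the largest share in every library, Igfbp6 and Igfbp5 are larger in SKM than in most fat libraries, and Igfbp2 is visible only in SKM quercetin 2.

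Quercetin was compared with vehicle within each tissue, 3 libraries against 3. No gene passed the threshold in any tissue with edgeR, 0% of 13562 genes in SKM, 14919 in WAT and 13274 in BAT, and so none of the 7 members tested did; Igf2 and Igfbp2 did not pass the count filter. At an unadjusted p under 0.05 there were 406, 122 and 241 genes, DESeq2 called 0, 7 and 2 genes, and limma voom called none. No member was among the genes DESeq2 called, the lowest adjusted p being 0.314. The median log2 fold change of the 7 members was -0.03 in SKM, -0.52 in WAT and 0.27 in BAT, against -0.03, -0.01 and 0.05 over all genes.

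The member with the smallest p was Igfbp3 in BAT, where the quercetin libraries averaged 44.5 ± 9.38 CPM and the vehicle libraries 149 ± 71.7 CPM (SD, n = 3 each). The log2 fold change was -1.73 ± 0.42 (3.33-fold lower, 95% interval -2.71 to -0.76), rank 8 of 13274 genes by p, with an unadjusted p of 0.00386 and an edgeR adjusted p of 0.977. It did not pass with DESeq2 (adjusted p = 0.314) or limma voom (adjusted p = 0.744), and it ranged from -1.98 to -1.27 on leaving out each library. Without the muscle-rich BAT quercetin 3 the value was -1.91. The endothelial marker sum (5 genes) was 1220 to 1290 CPM in BAT vehicle and 956 to 1130 in BAT quercetin. The hepatocyte marker sum (4 genes) was 0.501 to 1.16 and 7.59 to 120 CPM in the same arms. Centred within tissue over the 18 libraries, Igfbp3 had r of 0.653 with the first sum and -0.565 with the second. The part of these sums in the Igfbp3 difference was not tested. Within each library, Igfbp3 made up 9.91 to 20.4% of binding-protein transcript in BAT vehicle and 3.05 to 8.04% in BAT quercetin.

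In WAT the Igfbp3 estimate was alike in size (-1.75 ± 0.77) with a wider interval, -3.63 to 0.13 (adjusted p = 1), and it rested on WAT vehicle 1: without it the value was -0.42. That library also had the highest endothelial marker sum of WAT (5 genes, 3040 CPM against 322 to 901), whose part in the result was not tested. SKM gave -0.26 ± 0.41 (95% interval -1.21 to 0.69). The difference between tissues in the Igfbp3 response was tested itself. It was -1.49 ± 0.81 for WAT against SKM, -1.54 ± 0.81 for BAT against SKM and -0.05 ± 0.81 for BAT against WAT, each with an adjusted p of 1. Over all 16388 genes 0% passed in these 3 tests of the difference with edgeR (231, 223 and 173 at an unadjusted p under 0.05), and DESeq2 called 7, 2 and 13 genes and limma voom 3, 0 and 2.

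The library numbered vehicle 1 held the highest Igfbp3 of the 6 libraries in each tissue. The labels do not say whether a number stands for 1 animal across tissues. Stc1, which encodes stanniocalcin-1, an inhibitor of the IGFBP protease PAPP-A, was singled out after its values were seen: it read 55.1, 101 and 56.3 CPM in vehicle 1 of SKM, WAT and BAT and 1.21 to 9.53 CPM in the other 15 libraries. Without vehicle 1 the Igfbp3 estimate was 0.30 in SKM, -0.42 in WAT and -1.27 in BAT.

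Igf1r in WAT was lower in all 3 quercetin libraries (19.7 ± 1.52 CPM) than in all 3 vehicle libraries (28.0 ± 1.25 CPM), by -0.52 ± 0.24 on the log2 scale (95% interval -1.11 to 0.07, adjusted p = 1). This gap was the same sign on leaving out each library (-0.61 to -0.45) and within flow cell H7H2WDSXX (-0.57). In WAT 2 of the 7 members tested, Igf1r and Igfbp3, were lower without overlap, against 1.83% of all genes; in BAT 1 member, Igfbp3, was lower without overlap against 3.32%, and 1 member, Igfbp6, higher against 2.87%. In SKM no member of 7 was free of overlap, against 9.25% of all genes. The members were chosen with such values in view, so nothing is read from these counts.

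Igfbp6 in BAT was above vehicle by 1.34 ± 0.59 (95% interval -0.05 to 2.74, adjusted p = 0.977). The value was 0.48 without BAT quercetin 3, the library with the most muscle transcript and the highest Schwann cell marker sum of BAT (4 genes, 301 CPM against 58.7 to 126); their part was not tested. Igfbp5 had estimates above 0 in all 3 tissues, 1.18 ± 0.79 in SKM, 0.74 ± 1.18 in WAT and 0.75 ± 0.35 in BAT, none of which passed (adjusted p = 0.91, 1 and 0.977). In SKM it was 0.65 without SKM vehicle 1, and in WAT it was -1.05 without WAT quercetin 2. Igfbp6 was likewise above 0 in SKM (0.97 ± 0.61) and WAT (1.80 ± 1.44), and neither passed. Leaving out the same libraries gave 0.52 and -0.66 for Igfbp6. Igf1r and Igfbp3 had estimates below 0 in all 3 tissues, with Igf1r at -0.447 ± 0.335 in SKM and -0.18 ± 0.31 in BAT. Igf1, Igfbp4 and Igfbp7 had intervals that spanned 0 in each tissue, the widest being -3.73 to 2.04 for Igfbp4 in WAT, so changes of several fold in either direction were not detectable there.

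**Figure D5:**
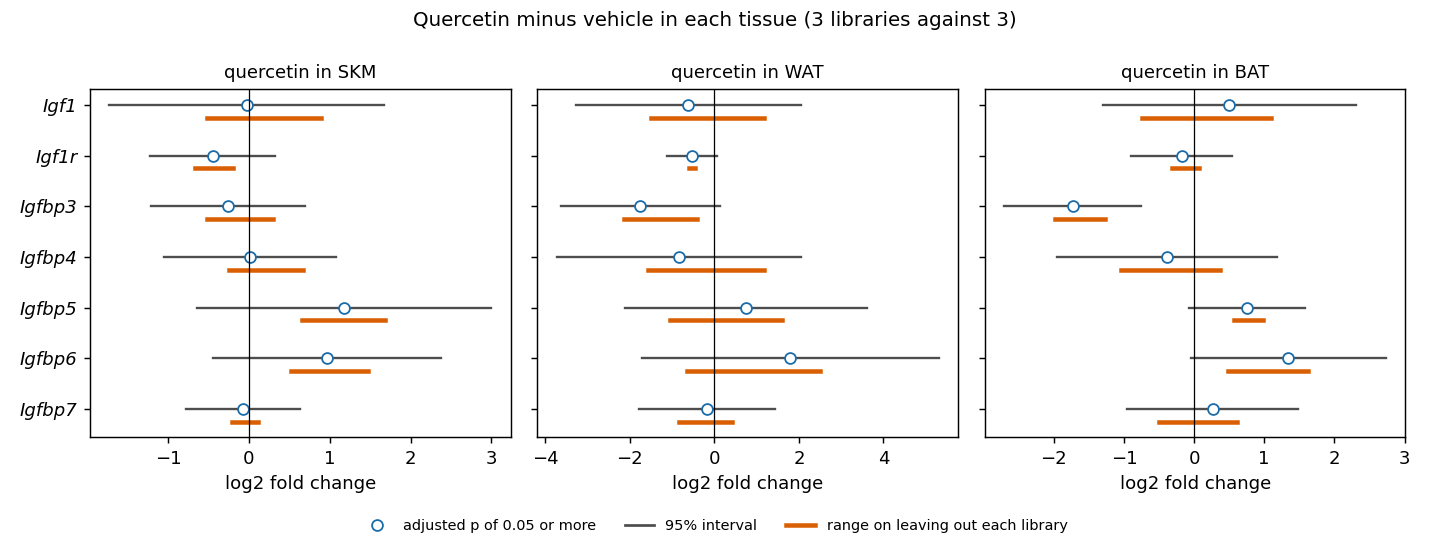
Log2 fold change of quercetin against vehicle for the 7 members tested in each tissue (points; dark lines, 95% intervals; orange lines, range on leaving out each library in turn; 3 libraries against 3). Only the Igfbp3 interval in BAT, -2.71 to -0.76, leaves out 0, and no adjusted p was under 0.05.

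Among the partners of the members, the acid-labile subunit Igfals, which completes the circulating IGF complex, was detected at 4.17 ± 2.34 CPM in SKM, 8.41 ± 6.71 in WAT and 7.53 ± 3.51 in BAT (SD, n = 6). Its tissue estimates of 0.91 ± 0.64 (WAT against SKM), 0.85 ± 0.64 (BAT against SKM) and -0.06 ± 0.64 (BAT against WAT) did not pass. Igfbp1, a liver binding protein, reached at most 0.109 CPM and Igfbpl1 at most 0.167 CPM, and neither was tested. Of the other receptors, Igf2r, which clears IGF2, was lower in WAT than in SKM without overlap (-0.90 ± 0.22, adjusted p = 0.00375), at 65.3 ± 16.2 against 123 ± 39.8 CPM; without the set of 5 libraries this was -0.65 (adjusted p = 0.074), and in vehicle libraries alone -0.97 (adjusted p = 0.0933). Insr, the insulin receptor, did not pass in any tissue comparison with edgeR (-0.60 ± 0.43, -0.03 ± 0.43 and 0.57 ± 0.43) with all libraries. Without WAT vehicle 1 it was lower in WAT than in SKM (-1.22, adjusted p = 0.00951) and higher in BAT than in WAT (1.19, adjusted p = 0.0128). Insrr, the insulin receptor-related receptor, was higher in WAT than in SKM (3.34 ± 1.13, adjusted p = 0.0226) at 2.67 ± 1.87 against 0.29 ± 0.31 CPM, a call lost in 3 of 18 leave-one-out fits. BAT against WAT was -1.78 ± 1.03 (adjusted p = 0.184), and -5.45 (adjusted p = 0.00251) without BAT quercetin 3.

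The pathway lists that follow are read against the shares of all genes called, 50.3% in WAT against SKM, 27.2% in BAT against SKM and 40.3% in BAT against WAT, and against all-gene medians of 0.24, 0.03 and -0.13; no list is called particular from its count. Of the 7 receptor substrates and adaptors, 2 were higher and 1 lower in WAT than in SKM, none passed in BAT against SKM with edgeR, and 1 was higher and 1 lower in BAT than in WAT (medians -1.06, -0.65 and -0.12). Grb14, an adaptor that dampens insulin receptor signalling, was lower in WAT than in SKM (-1.97 ± 0.67, adjusted p = 0.0234) and higher in BAT than in WAT (2.46 ± 0.68, adjusted p = 0.0101). The first call was lost without SKM vehicle 2 (-1.67, adjusted p = 0.0633) or WAT quercetin 1 (-1.85, adjusted p = 0.0501), and neither passed in vehicle libraries alone (-2.85, adjusted p = 0.0752, and 3.09, adjusted p = 0.085). Grb2, the adaptor that leads to the MAP kinases, went the other way (0.90 ± 0.32, adjusted p = 0.0307, and -1.18 ± 0.32, adjusted p = 0.00958); its WAT levels were 149 to 315 CPM in the 4 libraries with lymph node transcripts and 66.5 and 93.5 CPM in the pair without. The Grb2 difference of WAT from SKM was lost in 8 of 18 leave-one-out fits (0.63, adjusted p = 0.117, without WAT vehicle 2), and the part of lymph node content was not tested. Shc1, another adaptor, was higher in WAT than in SKM (0.71 ± 0.26, adjusted p = 0.0346). In BAT against SKM Shc1 was 0.50 ± 0.26 (adjusted p = 0.173), and 0.74 (adjusted p = 0.0355) without SKM vehicle 1. Irs1, the main insulin receptor substrate, ran from 0.397 to 68.8 CPM in WAT. Its estimate in BAT against SKM was -1.62 ± 0.88 (edgeR adjusted p = 0.192), and voom gave -2.16 (adjusted p = 0.00335).

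Of 17 PI3K and AKT pathway genes, 3 were higher and 7 lower in WAT than in SKM, 2 higher and 5 lower in BAT than in SKM, and 4 higher and 1 lower in BAT than in WAT; the list's medians were -0.51, -0.18 and 0.01. Foxo4, a transcription factor that AKT holds inactive, separated all 3 tissues without overlap: 127 to 219 CPM in SKM, 51.9 to 102 in BAT and 32.0 to 39.0 in WAT (WAT against SKM -2.26 ± 0.20, adjusted p = 1.78e-06; BAT against SKM -1.24 ± 0.20, adjusted p = 0.00043; BAT against WAT 1.03 ± 0.20, adjusted p = 0.00104; in vehicle libraries alone the last was 0.86, adjusted p = 0.108). Tsc1, a brake on mTOR complex 1, was lower than in SKM without overlap in WAT (-1.36 ± 0.28, adjusted p = 0.000965) and in BAT (-1.28 ± 0.28, adjusted p = 0.00323; -1.43, adjusted p = 0.105, in vehicle libraries alone). Mtor, the kinase itself, was higher in BAT than in WAT (2.03 ± 0.32, adjusted p = 0.000306), at 194 to 259 CPM in 5 BAT libraries and 60.8 CPM in BAT quercetin 3, against 32.5 to 73.0 CPM in WAT.

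In the growth hormone axis, which drives Igf1 transcription, 2 of 8 genes were higher and 1 lower in WAT than in SKM, 1 higher and 1 lower in BAT than in SKM, and 1 lower in BAT than in WAT (medians 0.47, 0.08 and -0.25). Stat5b, the factor that carries the signal to the Igf1 gene, was lower than in SKM without overlap in WAT (-1.41 ± 0.28, adjusted p = 0.000933) and in BAT (-1.50 ± 0.29, adjusted p = 0.00142). In vehicle libraries alone neither Stat5b call held (-1.59, adjusted p = 0.058, and -1.77, adjusted p = 0.0822). Its relative Stat5a was higher in BAT than in SKM (1.43 ± 0.38, adjusted p = 0.0119; 1.19, adjusted p = 0.304, in vehicle libraries alone). Socs3, a cytokine-induced inhibitor, reached 509 CPM in SKM quercetin 1 against 23.4 to 78.6 in the other SKM libraries, and BAT against WAT did not pass (-1.14 ± 0.70, adjusted p = 0.208), though it did without BAT quercetin 3 (-2.24, adjusted p = 0.013). Socs1, a feedback inhibitor of JAK kinases, was higher in WAT than in SKM (3.33 ± 0.73, adjusted p = 0.00174) and lower in BAT than in WAT (-2.91 ± 0.72, adjusted p = 0.0053); in WAT it stood at 21.2 to 37.0 CPM in the 4 libraries with lymph node transcripts and at 3.71 and 5.91 CPM in the pair without, and the part of that content was not tested.

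Of the 10 genes for IGFBP proteases and their inhibitors, 3 were higher in WAT than in SKM and none lower, 1 was higher and 2 lower in BAT than in SKM, and 1 was higher and 3 lower in BAT than in WAT (medians 0.42, -0.80 and -1.32). Adam12, a metalloprotease that cleaves IGFBP3 and IGFBP5, was higher in BAT (30.9 to 184 CPM) than in SKM (0.233 to 24.1 CPM) without overlap (4.10 ± 0.78, adjusted p = 0.00139; 4.01, adjusted p = 0.0735, in vehicle libraries alone). Htra1, a secreted serine protease, was lower in BAT than in SKM (-1.27 ± 0.41, adjusted p = 0.0324), a call lost in 7 of 18 leave-one-out fits, with -0.59 (adjusted p = 0.141) without SKM vehicle 1. The membrane protease Mmp14 was higher in WAT than in SKM (1.39 ± 0.32, adjusted p = 0.00226) and lower in BAT than in WAT (-1.86 ± 0.32, adjusted p = 0.000582), each without overlap. The PAPP-A inhibitor Stc2 followed the same order (1.66 ± 0.52, adjusted p = 0.0162, and -3.08 ± 0.56, adjusted p = 0.000753), the first lost without WAT quercetin 2 (1.17, adjusted p = 0.0659) or WAT vehicle 3 (1.35, adjusted p = 0.0542); in vehicle libraries alone they were 1.56 (adjusted p = 0.152) and -2.73 (adjusted p = 0.0524). None of the genes of these lists passed in a quercetin comparison.

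By Pearson correlation of log2 CPM over the 18 libraries, among 16380 genes, the genes most like each member were Rnd3, Mst1r and Tceal8 for Igf1 (r of 0.927 to 0.921), Wbp1l, Gm31763 and Ubr1 for Igf1r (0.886 to 0.885), and Castor1, Fam71f2 and Gm9889 for Igfbp3 (0.854 to 0.848). For Igfbp4 they were Adcy5, Tcaf1 and Sema5a (0.933 to 0.920). For Igfbp5 they were Serpine2, 5730409E04Rik and Tnxb (0.947 to 0.927), and for Igfbp6 Mfap5, Cbr2 and Pcolce2 (0.961 to 0.934). Igfbp7 was most like Fkbp10, Hivep3 and Rpn2 (0.921 to 0.891), and Igfbp2 had the weakest matches, Krt8, Umad1 and Nup37 (0.702 to 0.622). These are descriptions over libraries that share tissue and depth.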

How the data were processed

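Total RNA of 18 libraries was sequenced, 3 for each of 6 groups named in the titles. The deposited values are raw counts per Ensembl gene; HISAT2, HTSeq and DESeq2 with build mm10 were used per the submitters' processing notes, while the sources used here give no versions, annotation release or strand setting. The 5 summary lines per file were left out. Symbols, coordinates and exon lengths came from GENCODE M21 (GRCm38), which named 53274 of 53465 genes.

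Counts were divided by library size and TMM factors, giving CPM. Tests used edgeR 4.0.16 in R 4.3.3 (filterByExpr, count at least 10, total at least 15, glmQLFit and a two-sided quasi-likelihood F test), with Benjamini-Hochberg adjustment over all genes tested and a threshold of 0.05. Quercetin was tested within each tissue, and tissues and differences of response in 1 fit of 18 libraries. Alternatives used DESeq2 1.42.0, limma 3.58.1 (voom with library weights), RLE factors, no count filter, each library left out, and 1 flow cell. The number in the titles was also used as a block, together with the arm in the fit of 18 libraries. Tissue fits were repeated with vehicle libraries only, and without a set of 5 libraries (SKM vehicle 1 and 3, SKM quercetin 2, WAT vehicle 2, BAT quercetin 3).

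Correlations used log2 CPM with a prior count of 2. Scripts were tested on simulated counts. Named genes were the 9 members, 6 related genes, of each other pathway list the 2 genes with the smallest p in each tissue comparison and any gene past the threshold for quercetin, the 3 genes most correlated with each member, and markers beside a result they moved with. The members and lists were chosen with earlier results of these data known.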

Additional observations from a re-analysis of the deposited data

Results flagged for a closer look

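There were 7 values that lay far from the other 5 libraries of their tissue by Dixon's criterion at the 95% level, and each was the highest of its tissue. The criterion assumes normally distributed values. It was applied to CPM, with both arms of a tissue together, for each of the 9 genes in every tissue. No chance rate is therefore given. Igfbp2 read 52.9 CPM in SKM quercetin 2 against 0 to 1.80 in the others, and 1.41 CPM in BAT quercetin 1 against 0 to 0.418. Igfbp3 read 507 CPM in WAT vehicle 1 against 54.3 to 99.2. Igfbp6 read 256 CPM in WAT quercetin 2 against 2.59 to 49.4, and 93.0 CPM in BAT quercetin 3 against 10.7 to 29.3. Igf1r read 26.9 CPM in BAT vehicle 1 against 16.0 to 19.7. Igf2 read 0.511 CPM in WAT quercetin 2 against 0 to 0.0794, a difference of few counts.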

How the results depend on the processing

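Counts of genes past the threshold: for quercetin, no count filter gave 32 genes in SKM, DESeq2 gave 7 in WAT and 2 in BAT, and leaving out 1 library gave 0 to 1 in BAT. For the differences of response (WAT against SKM, BAT against SKM, BAT against WAT) DESeq2 gave 7, 2 and 13 genes, and voom 3 in the first and 2 in the last. Between tissues, in the same order, the main fits gave 8251, 4461 and 6604 genes, and voom gave 11588, 7451 and 11053. Vehicle libraries alone gave 3091, 871 and 1442, and the fits without the set of 5 libraries gave 5675, 3442 and 5859.

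Estimates that changed sign were as follows, and the cause was not tested. With voom they were 0.13 for Igfbp3 in SKM quercetin; 0.36, -0.20 and -0.25 for Igfbp4, Igfbp5 and Igfbp6 in WAT quercetin; -0.29 and -0.35 for Igf1 and Igfbp7 in BAT quercetin; -0.50, -0.15, 0.11 and -0.13 for Igf1, Igfbp7, Insr and Insrr in BAT against SKM; and 0.31 and 0.51 for Igfbp5 and Igfals in BAT against WAT. Within flow cell H7H2WDSXX they were 0.32 and -0.17 for Igf1 and Igfbp4 in SKM quercetin, 0.29, 0.43, -0.20 and -0.55 for Igf1, Igfbp4, Igfbp5 and Igfbp6 in WAT quercetin, 0.0341, 0.87, 0.59 and 0.91 for Igfbp3, Igfbp5, Igfbp6 and Igfals in BAT against WAT, and -0.15 for Igfals in WAT against SKM. DESeq2 and RLE factors gave -0.0338 for Igfbp7 in BAT against SKM. Without the set of 5 libraries, BAT against SKM gave -0.15, -0.36, 0.49 and -0.44 for Igf1, Igfbp7, Insr and Insrr, WAT against SKM 0.00532 for Insr, and BAT against WAT 0.65 and -0.0613 for Igfbp2 and Igf2bp2. Vehicle libraries alone gave 0.10 and -0.17 for Igfbp4 and Igfbp7 in BAT against SKM and 0.22 for Igfals in BAT against WAT.

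Leaving out each library gave sign changes within these ranges. SKM quercetin: Igf1 -0.51 to 0.89, Igfbp3 -0.52 to 0.30, Igfbp4 -0.25 to 0.67, Igfbp7 -0.20 to 0.11. WAT quercetin: Igf1 -1.50 to 1.18, Igfbp4 -1.56 to 1.18, Igfbp5 -1.05 to 1.61, Igfbp6 -0.66 to 2.5, Igfbp7 -0.84 to 0.41. BAT quercetin: Igf1 -0.74 to 1.1, Igf1r -0.31 to 0.0699, Igfbp4 -1.04 to 0.37, Igfbp7 -0.50 to 0.62. BAT against SKM: Igf1 -0.30 to 0.74, Igfbp3 -0.0876 to 0.43, Igfbp4 -0.49 to 0.21, Igfbp7 -0.34 to 0.18, Insr -0.33 to 0.19, Insrr -2.11 to 3.28. BAT against WAT: Igfbp2 -0.75 to 0.52, Igfbp5 -0.65 to 0.46, Igfbp6 -1.09 to 0.54, Igfals -0.43 to 0.61. The Igfbp3 difference of response between BAT and WAT ran from -1.32 to 0.50.

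The number in the titles was tried as a block. Within a tissue this joined the vehicle and quercetin libraries of equal number, so those quercetin fits are no check on pairing by animal. In the fits of 18 libraries the block was the arm and number together. Across tissues within an arm, same-numbered libraries correlated at -0.136 to 0.298 (18 pairs, median 0.116). Libraries with different numbers had a median of -0.026 (36 pairs). Across arms of 1 tissue, same-numbered libraries correlated at -0.699 to 0.266 (9 pairs), which cannot show whether 1 animal gave several tissues. The labels do not state a pairing, so the main fits left the number out. Whether those fits ignore a pairing of tissues by animal is not settled. In the vehicle arm alone the 9 same-numbered pairs ran from 0.0532 to 0.298, and pairs with different numbers from -0.302 to 0.123. In the quercetin arm these ranges were -0.136 to 0.149 and -0.184 to 0.14. The vehicle values are a hint from the data only. The block gave 0 quercetin calls per tissue and 8071, 4370 and 6319 genes between tissues, and changed the sign of Igf1 in SKM quercetin (0.36), Igfbp4 in WAT quercetin (0.0832), and Igf1 (-0.0146) and Igfbp7 (-0.0348) in BAT against SKM. With it the following were past the threshold no longer: in WAT against SKM Igfbp2 (-2.49, adjusted p = 0.256), Igfbp4 (1.03, 0.138), Igfbp7 (1.03, 0.0534), Grb14 (-1.80, 0.0698) and Grb2 (0.78, 0.0553), in BAT against SKM Htra1 (-1.11, 0.0852), and in BAT against WAT Igfbp7 (-1.06, 0.0605) and H19 (4.02, 0.0503). Igfbp3 in WAT against SKM (0.68, 0.0427) and, in BAT against SKM, Shc1 (0.54, 0.0435) and H19 (-3.89, 0.0431) passed with it. With 3 libraries a group, the quercetin intervals span several fold for most members, and Igf2 and Igfbp2 were too low to test.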
